A study of Mus musculus with 38 samples.

Results

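Fatty acid uptake and oxidation was followed here through 32 genes of the mouse heart, of 35682 genes in the count table. The genes were chosen by symbol, as the rows whose Ensembl identifier carries a listed symbol in GRCm39. That rule uses no measured value, but the list was chosen with earlier results of these data known. They cover uptake (Cd36, Fabp3, Lpl), activation (Acsl1), the carnitine shuttle (Cpt1a, Cpt1b, Cpt2, Slc25a20, Crat) and beta-oxidation (Acadl, Acadm, Acads, Acadvl, Hadha, Hadhb, Hadh, Echs1, Acaa2). They also cover the oxidation of unsaturated fatty acids (Ech1, Eci1, Eci2, Decr1), electron transfer (Etfa, Etfb, Etfdh), thioesterases (Acot2, Acot13) and regulation (Mlycd, Pdk4, Ucp3, Ppara, Ppargc1a).

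The 38 libraries came from male C57BL/6 mice of 8 to 12 weeks, with 2 hearts pooled in each library. Sham mice and Control_IR mice received vehicle (5% dimethyl sulfoxide) for 6 weeks, and EMPA_IR mice received empagliflozin, an inhibitor of the sodium-glucose cotransporter SGLT2, at 10 mg/kg per day for the same 6 weeks. Control_IR and EMPA_IR hearts then had their coronary flow blocked for 30 min and restored for 2 h (acute myocardial infarction, AMI), which Sham hearts did not. Sham mice had an open-chest operation without that block. Cardiomyocytes were settled at low speed from digested heart tissue, the ischemic part in infarcted hearts (4 Sham, 5 Control_IR and 4 EMPA_IR libraries). Endothelial cells (ECs; CD45-CD31+; 4, 4 and 5 libraries) and fibroblasts (CD45-CD31-CD90+; 4, 4 and 4 libraries) were sorted. The sorted cells came from the suspension left after the cardiomyocytes of the same hearts had settled. No group received empagliflozin without AMI, so an effect of the drug alone cannot be told apart from its effect in infarcted hearts.

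The genes that carry the results lie in GRCm39 at chr6:5483097-5496339 on the minus strand (ENSMUSG00000019577) for Pdk4, chr8:69284603-69360100 on the plus strand (ENSMUSG00000015568) for Lpl, chr5:17986432-18094067 on the minus strand (ENSMUSG00000002944) for Cd36, chr9:55361714-55419792 on the minus strand (ENSMUSG00000032314) for Etfa and chr3:131027068-131065750 on the minus strand (ENSMUSG00000027984) for Hadh, spans that include introns. Counts come from the 3′ ends of their transcripts.

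The adult heart draws most of its energy from fatty acids. Lipoprotein lipase releases them from circulating triglyceride at the capillary wall, CD36 carries them across cell membranes, and FABP3 binds them inside cardiomyocytes. Acyl-CoA synthetases activate them, the carnitine shuttle moves the acyl groups into mitochondria, and the beta-oxidation spiral shortens them while electron-transfer flavoprotein passes the electrons to the respiratory chain. The nuclear receptor PPARα and its coactivator PGC-1α drive transcription of many of these genes, and Pdk4, which restrains glucose oxidation through pyruvate dehydrogenase, is among the PPARα targets.

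The promoters of Pdk4 and Acadm are printed because PPARα is known to act on both genes, and that of Hadhb because it faces its partner gene Hadha, with which its counts parted in 3 cardiomyocyte libraries described further on; Hadhb was chosen after its values were seen. Each window runs from 250 bases before to 50 bases after the RefSeq start in GRCm38.p6, whereas the counts were made on GRCm39, so the 2 sets of coordinates are not interchangeable. Pdk4 lies at chr6:5496229-5496528 on the minus strand, Acadm at chr3:153944594-153944893 on the minus strand and Hadhb at chr5:30155003-30155302 on the plus strand. All are written 5′ to 3′ on the strand of the gene. Capitals mark the core site of nuclear receptors, AGGTCA read on either strand.
Pdk4: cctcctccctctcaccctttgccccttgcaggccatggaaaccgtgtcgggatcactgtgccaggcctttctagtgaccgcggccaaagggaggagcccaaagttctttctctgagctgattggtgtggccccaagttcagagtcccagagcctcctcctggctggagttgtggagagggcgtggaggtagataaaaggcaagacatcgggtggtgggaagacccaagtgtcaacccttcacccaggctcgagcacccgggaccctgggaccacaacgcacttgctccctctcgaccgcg
Acadm: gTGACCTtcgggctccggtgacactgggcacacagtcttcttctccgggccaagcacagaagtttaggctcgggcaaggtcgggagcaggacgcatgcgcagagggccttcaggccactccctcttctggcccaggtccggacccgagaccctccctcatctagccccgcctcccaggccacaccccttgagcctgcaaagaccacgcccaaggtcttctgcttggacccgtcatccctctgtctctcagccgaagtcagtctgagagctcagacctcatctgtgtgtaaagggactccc
Hadhb: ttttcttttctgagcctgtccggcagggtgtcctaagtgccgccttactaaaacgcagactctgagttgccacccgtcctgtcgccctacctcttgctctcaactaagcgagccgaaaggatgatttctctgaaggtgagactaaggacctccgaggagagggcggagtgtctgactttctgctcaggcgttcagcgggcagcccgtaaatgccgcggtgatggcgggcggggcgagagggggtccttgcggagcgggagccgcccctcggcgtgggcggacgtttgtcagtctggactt
Acadm held 1 core site, read on the opposite strand and 249 bases before the start, and the windows of Pdk4 and Hadhb held none. The windows of Hadhb and Hadha overlap by 228 bases, with starts 273 bases apart on opposite strands.

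Of the 32 genes, 26 had a promoter window. A core site was present in 6 of them (Acadm, Acadvl, Cd36, Cpt1a, Echs1 and Ucp3), 23.1%, against 18.1% of all 27025 genes with a window (4900). The direct repeat DR1, in which a pair of core sites is spaced by a single base, was in 0 of 26 against 13 of all genes with a window (0.05%). The longer site TCAAGGTCA, which contains the core site and is bound by estrogen-related receptors, was in 0 of 26 against 126 (0.47%). The E-box CACGTG was also in 0 of 26, against 2187 (8.09%). A match is a description of the letters in a window of fixed length, and the absence of a match says nothing of binding elsewhere.

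Each cardiomyocyte library held 2031716 to 4509284 counts, each EC library 1352514 to 2195308 and each fibroblast library 1946056 to 2821373. Mitochondrially encoded genes took between 46.6% and 66.01% of cardiomyocyte counts, between 4.52% and 14.6% of EC counts and between 3.47% and 12.5% of fibroblast counts. Of the other counts of a library, the 32 genes took 1.65% to 3.00% (cardiomyocytes), 0.353% to 0.682% (ECs) or 0.202% to 0.338% (fibroblasts). Summed cardiomyocyte markers, in CPM of the counts that are not mitochondrially encoded, were 69394 to 122256 in cardiomyocyte libraries. Fibroblast markers stood out in the Control_IR EC libraries, with summed levels of 2509 to 9207 CPM against 750.0 to 1890.4 in Sham and 613 to 1192 in EMPA_IR. All 10 fibroblast markers had a higher mean in Control_IR than in Sham ECs, 8 of them without overlap, and none was at 0. Levels are CPM, counts scaled to library size and then by TMM factors (trimmed mean of M values), fitted within each population unless stated. Libraries were made from 3′ ends, so a level is not proportional to transcript length, and levels are compared for 1 gene between groups, not between genes. Genes were called at a false discovery rate (FDR) below 0.05 in edgeR's quasi-likelihood test, and also at 0.1 for EMPA_IR against Control_IR cardiomyocytes, where the study applied that limit. Counts of genes at an unadjusted p under 0.05 come without a share over all genes, so no result about the pathway is read from them. In bulk libraries fewer cells of a type and less RNA per cell cannot be told apart.

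The first comparison asked where the pathway is expressed in hearts without AMI. In Sham hearts 30 of the 32 genes were higher in cardiomyocytes than in ECs, and 31 were higher than in fibroblasts. Over all genes tested, 28.1% were called higher in cardiomyocytes than in ECs and 24.5% higher than in fibroblasts. The median log2 fold change of the 32 genes was 4.27 against ECs and 4.03 against fibroblasts, beside -0.04 and -0.09 over all genes. Cd36 and Cpt1a did not follow the other members. These values come from 1 fit of all 38 libraries, whose CPM scale differs from that of the fits within a population. The fit treats libraries of the 3 populations as independent, although the populations were taken from the same hearts.

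**Figure D1:**
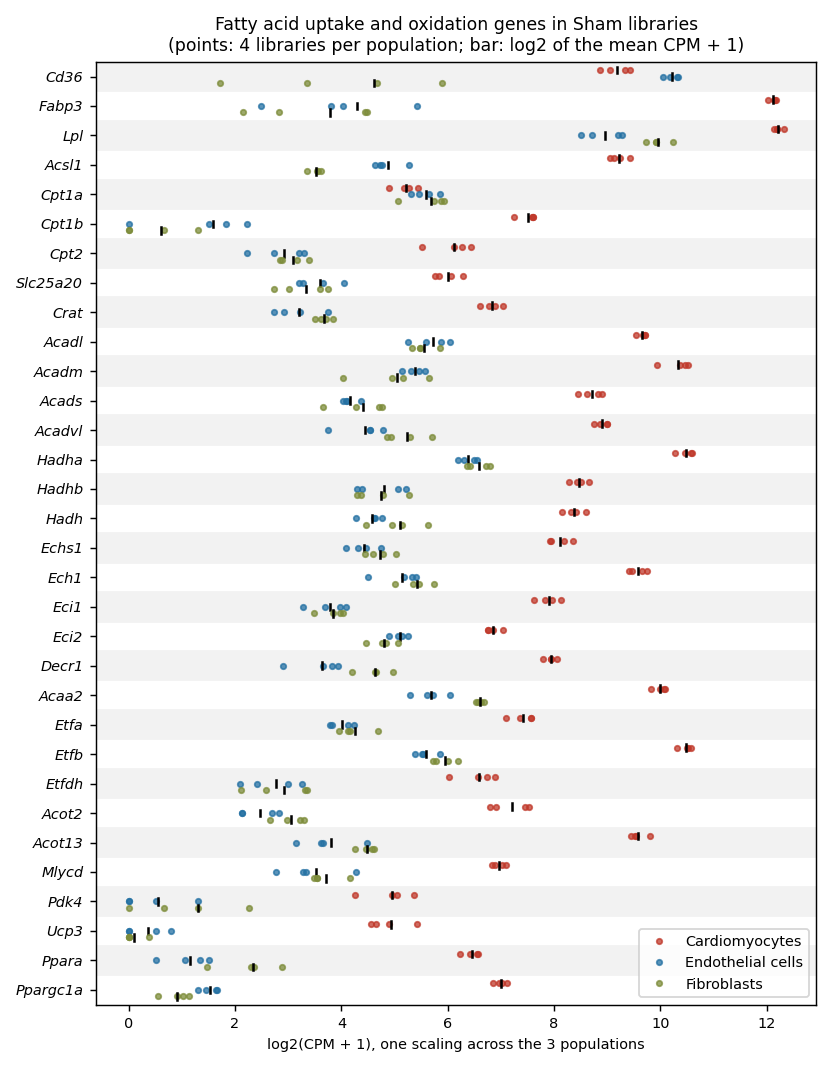
Level of each of the 32 genes in Sham libraries (log2 of CPM + 1, fit of all libraries), with 1 point per library and 4 libraries in each of cardiomyocytes, ECs and fibroblasts. Cardiomyocyte points lie to the right for nearly every gene, while Cd36 is highest in ECs and, on this scale, the Cpt1a points of the 3 populations lie together.

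Uptake genes divided the populations. Fabp3, the cytosolic fatty acid binding protein of heart muscle, had 4467 ± 206 CPM in cardiomyocytes, 18.7 ± 16.2 in ECs and 12.9 ± 9.39 in fibroblasts (± SD, n = 4 each; log2 7.88 against ECs and 8.46 against fibroblasts). Lpl had 4736 ± 265 CPM in cardiomyocytes, 498 ± 126 in ECs and 998 ± 156 in fibroblasts and was called in all 3 pairs of populations, also lower in ECs than in fibroblasts (log2 -1.002, FDR: 0.000138). Cd36 had 584 ± 104 CPM in cardiomyocytes, 1197 ± 106.4 in ECs and 23.5 ± 24.9 in fibroblasts. Its difference between ECs and fibroblasts was the widest of the list (log2 5.67, FDR: 9.24e-09), it was higher in cardiomyocytes than in fibroblasts (log2 4.63, FDR: 1.67e-07), and the lower level in cardiomyocytes than in ECs did not pass the test (log2 -1.04, 95% CI -2.09 to 0.02, FDR: 0.0926). Summed endothelial markers stood in Sham cardiomyocyte libraries at 11.4% of their level in ECs, beside 29.3% for Cd36 in counts that are not mitochondrially encoded, and the part of endothelial RNA in the Cd36 level of cardiomyocytes was not tested.

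Acsl1, the long-chain acyl-CoA synthetase of heart, had 597 ± 69.1 CPM in cardiomyocytes, 28.3 ± 6.34 in ECs and 10.5 ± 0.891 in fibroblasts, and it was also higher in ECs than in fibroblasts (log2 1.44, FDR: 6.46e-06). The carnitine palmitoyltransferases of the outer membrane, which set the entry of acyl groups into mitochondria, ran apart. Cpt1b, the muscle form, had 182 ± 20.4 CPM in cardiomyocytes, 2.01 ± 1.54 in ECs and 0.516 ± 0.698 in fibroblasts (log2 6.38 and 8.45). Both folds rest on few counts, 0 to 12 per Sham EC library and 0 to 5 per Sham fibroblast library. Cpt1a, the liver form, had 35.9 ± 5.71 CPM in cardiomyocytes, 47 ± 7.93 in ECs and 50.7 ± 12.6 in fibroblasts, and neither difference from cardiomyocytes passed the test (log2 -0.39, FDR: 0.133 against ECs and log2 -0.50, FDR: 0.0544 against fibroblasts). The scale matters for Cpt1a. In counts that are not mitochondrially encoded, without TMM factors, it stood in ECs at 218% of its cardiomyocyte level and in fibroblasts at 225%. Slc25a20, the carnitine-acylcarnitine translocase of the inner membrane, had 62.9 ± 10.6 CPM in cardiomyocytes, 11.1 ± 3.38 in ECs and 9.04 ± 3.20 in fibroblasts. In all, 4 of 5 shuttle genes were higher in cardiomyocytes in both comparisons.

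All 9 beta-oxidation genes were higher in cardiomyocytes, by 3.73 to 4.99 on the log2 scale against ECs and 3.30 to 5.32 against fibroblasts. Acadm, the medium-chain acyl-CoA dehydrogenase, had 1295 ± 215 CPM in cardiomyocytes, 40.7 ± 5.37 in ECs and 32.2 ± 13.9 in fibroblasts. Acadl, the long-chain dehydrogenase, had 809.6 ± 42.3 CPM in cardiomyocytes, 51.7 ± 12.2 in ECs and 45.7 ± 7.66 in fibroblasts. Hadha, the alpha subunit of the trifunctional protein, had 1433 ± 139 CPM in cardiomyocytes, 82.9 ± 9.49 in ECs and 95.1 ± 14.4 in fibroblasts. These levels in the sorted cells were well above 0, in contrast to those of the muscle forms. The 4 genes for unsaturated fatty acids were higher by 1.79 to 4.48 against ECs and 2.10 to 4.19 against fibroblasts, with Eci2 at the low end of both ranges. Etfb, the beta subunit of electron-transfer flavoprotein, had 1425 ± 113 CPM in cardiomyocytes, 47.1 ± 6.88 in ECs and 60.5 ± 9.48 in fibroblasts (log2 4.92 and 4.56), and Etfa and Etfdh were higher as well.

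Acot2, a mitochondrial acyl-CoA thioesterase, had 147 ± 37 CPM in cardiomyocytes, 4.57 ± 1.42 in ECs and 7.31 ± 1.56 in fibroblasts. Its near-identical copy Acot1 could share its reads. Pdk4, Ppara and Ppargc1a were close to the detection limit in the sorted cells. Pdk4 had 30.1 ± 9.29 CPM in cardiomyocytes, 0.474 ± 0.689 in ECs and 1.47 ± 1.68 in fibroblasts, Ppara had 86.4 ± 9.46 CPM in cardiomyocytes, 1.22 ± 0.608 in ECs and 4.05 ± 1.88 in fibroblasts and Ppargc1a had 127 ± 9.48 CPM in cardiomyocytes, 1.87 ± 0.332 in ECs and 0.887 ± 0.308 in fibroblasts. Ucp3, an uncoupling protein of the inner membrane in muscle, had 29.4 ± 8.90 CPM in cardiomyocytes, against 3 counts in total over the 4 EC libraries and 1 over the 4 fibroblast libraries. Set against 3 counts per library, its level in cardiomyocytes was at least 22.6-fold higher than in ECs and at least 33.2-fold higher than in fibroblasts.

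RNA of cardiomyocytes in the sorted libraries bears on these levels. Summed cardiomyocyte markers stood in Sham ECs at 1.08% of their cardiomyocyte level and in Sham fibroblasts at 0.701%. In ECs, Fabp3 was at or under that share, and in fibroblasts Fabp3, Cpt1b and Ucp3 were. The median share over the 32 genes was 8.67% in ECs and 9.84% in fibroblasts. Between ECs and fibroblasts 7 of the 32 genes were called, where 37.7% of all genes were. Cd36 and Acsl1 were higher in ECs, and Lpl, Acaa2, Decr1, Ppara and Acadvl were lower.

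The effect of AMI was read from Control_IR against Sham within each population, and that of empagliflozin pretreatment from EMPA_IR against Control_IR. These share the Control_IR libraries, and EMPA_IR against Sham shares libraries with both. In cardiomyocytes AMI gave no call among the 32 genes (0 of 32, where 0.0655% of all 9167 genes tested were called), with 2 genes at an unadjusted p under 0.05 (Pdk4 and Ppara) and 1 call by DESeq2, which called 0.213% of all genes. The estimates were higher for 10 genes and lower for 22, with a median log2 fold change of -0.07 beside 0.01 over all genes. All 9 beta-oxidation estimates lay between -0.22 and 0.16, the 5 shuttle estimates between -0.21 and 0.16 and the 4 for unsaturated fatty acids between -0.22 and -0.13, so that the largest estimates belonged to regulators.

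Pdk4, the kinase that switches off pyruvate dehydrogenase, had 14.1, 18, 7.87 and 13.2 CPM in Sham, 43.9, 50.8, 96.9, 44.3 and 58.1 in Control_IR and 128, 26, 57.4 and 34.5 in EMPA_IR cardiomyocytes. All 5 Control_IR libraries were above all 4 Sham libraries, and it was the 1 member of 32 without overlap, where 2.47% of all genes had none. The mean was 58.8 ± 22.1 against 13.3 ± 4.16 CPM (log2 fold change 2.13 ± 0.42 (SE), 95% CI 1.23 to 3.03, FDR: 0.132). The FDR depended on the fit. It was 0.000182 by DESeq2, 0.000621 in a fit of these 2 groups alone, 0.00212 with sample-sheet lists as a term, 0.0174 with library number series as a term and 0.00365 without EMPA_IR library 1, and it stayed above 0.05 in the other 18 of 23 alternatives, up to 0.582. EMPA_IR against Sham was called for Pdk4 (log2 fold change 2.19 ± 0.44 (SE), 95% CI 1.26 to 3.12, FDR: 0.0461), the only call of 32 in that comparison, where 0.338% of all genes were called. The 4 EMPA_IR libraries were also all above Sham, and the widest value was that of EMPA_IR library 1. Its fold change was 1.36 to 2.60 over 24 alternatives, and it was called in 10 of them. Leaving out any of the 4 Sham libraries (FDR: 0.153, 0.0765, 0.142 and 0.187), Control_IR library 1, 2, 4 or 5 (0.0584, 0.0746, 0.0668 and 0.0654) or EMPA_IR library 3 (0.102) ended the call, and without EMPA_IR library 4 the comparison gave 4 calls. That count of 4 has no share of all genes beside it.

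Ppara, the nuclear receptor, had 40.8, 32.8, 36.9 and 41.7 CPM in Sham, 32.1, 20.3, 33.8, 11 and 25.8 in Control_IR and 29.3, 15.7, 32.8 and 34.1 in EMPA_IR. Of the 5 Control_IR libraries 4 were below the lowest Sham library, and the difference did not pass the test (log2 -0.62, FDR: 1). Ppargc1a, its coactivator, had 54.6, 57.3, 60.2 and 50.9 CPM in Sham, 90.6, 62.9, 80.1, 42 and 48.1 in Control_IR and 87.5, 35.7, 102 and 72.8 in EMPA_IR. Ucp3 had 12.7, 18.7, 10.6 and 9.92 CPM in Sham, 24.4, 21, 25.6, 8.67 and 14.2 in Control_IR and 42.2, 12.1, 24.6 and 12.3 in EMPA_IR. Both spread more widely after AMI than in Sham, with values on either side of the Sham range.

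The uptake and activation genes varied more among the infarcted libraries than among Sham libraries. Cd36 had 284, 306, 232 and 206 CPM in Sham, 324, 321, 338, 222 and 215 in Control_IR and 413, 247, 288 and 239 in EMPA_IR. Fabp3 had 2024, 2031, 1971 and 1845 CPM in Sham, 1964, 1715, 2307, 1041 and 1555 in Control_IR and 2446, 2359, 3412 and 1928 in EMPA_IR. Control_IR library 4 was the lowest of the 13 for Fabp3 and EMPA_IR library 3 the highest. Lpl had 2239, 2078, 2039 and 1986 CPM in Sham, 2633, 2371, 2329, 1319 and 1798 in Control_IR and 2539, 2401, 3188 and 2603 in EMPA_IR, with every EMPA_IR library above every Sham library. Acsl1 had 265, 249, 302 and 235 CPM in Sham, 314, 259.5, 336, 154 and 209.5 in Control_IR and 280.0, 189, 384 and 302 in EMPA_IR. Control_IR library 4 again held the lowest value for both.

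Among shuttle genes, Cpt1a had 18.6, 15.5, 16.4 and 12.7 CPM in Sham, 17.8, 17.6, 20.04, 17.7 and 14.9 in Control_IR and 20.1, 23.6, 10.8 and 13.4 in EMPA_IR. Cpt1b, whose transcript overlaps the gene model Gm44502 on the same strand, had 83.4, 85.4, 84.1 and 66.9 CPM in Sham, 87.5, 86.3, 100.2, 68 and 53.9 in Control_IR and 74.6, 44.2, 142 and 87.3 in EMPA_IR. Slc25a20 had 28.7, 23.5, 33.5 and 24.9 CPM in Sham, 30.5, 32.5, 10.2, 28 and 35.8 in Control_IR and 31.4, 41.1, 70.7 and 28.5 in EMPA_IR. Control_IR library 3 lay far below the rest of its group for Slc25a20, and EMPA_IR library 3 far above. Within beta-oxidation, Acadm had 641, 589, 614 and 436 CPM in Sham, 648, 514, 822, 300.3 and 393 in Control_IR and 688, 381, 611 and 589 in EMPA_IR. Acadl had 365, 362, 368 and 331 CPM in Sham, 354, 331, 335, 215 and 299 in Control_IR and 384, 292, 528 and 397 in EMPA_IR. Etfb, which overlaps the gene model Etfbl on the same strand, had 632, 649.8, 669 and 560.4 CPM in Sham, 604, 488, 895, 365 and 545 in Control_IR and 674, 746, 836 and 708 in EMPA_IR, so that all EMPA_IR libraries exceeded all Sham libraries, as for Pdk4 and Lpl (3 of 32 without overlap, where 7.88% of all genes had none). Acot2 had 48.4, 77.2, 80.02 and 52.9 CPM in Sham, 79.9, 54.8, 127, 21.7 and 64.3 in Control_IR and 35, 7.86, 46.1 and 111 in EMPA_IR, and its lowest value belonged to EMPA_IR library 2.

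Empagliflozin pretreatment was followed by higher estimates for most of the pathway in cardiomyocytes. At FDR below 0.1, 6 of the 32 genes were called, all higher, against 5.33% of all genes called higher at that limit. They belong to 4 steps, namely the shuttle (Cpt2), beta-oxidation (Hadh, Acadvl, Hadhb), unsaturated fatty acids (Ech1) and electron transfer (Etfa). At FDR below 0.05 edgeR called 0 of 32, where it called 0.0218% of all genes. It placed 12 at an unadjusted p under 0.05, a count with no share of all genes beside it. DESeq2 called 5 of 32, and 8.86% of all genes. Of the 32 estimates 28 were above 0, with a median log2 fold change of 0.31 beside -0.01 over all genes. The estimates were above 0 for all 4 genes of unsaturated fatty acids (0.40 to 0.72), all 3 of electron transfer (0.35 to 0.68), all 5 regulators (0.06 to 0.47) and all 3 uptake genes (0.06 to 0.56). They were above 0 for 7 of 9 beta-oxidation genes (-0.10 to 0.91) and 4 of 5 shuttle genes (-0.09 to 0.75), and the lowest was that of Acot2 (-0.45).

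**Figure D2:**
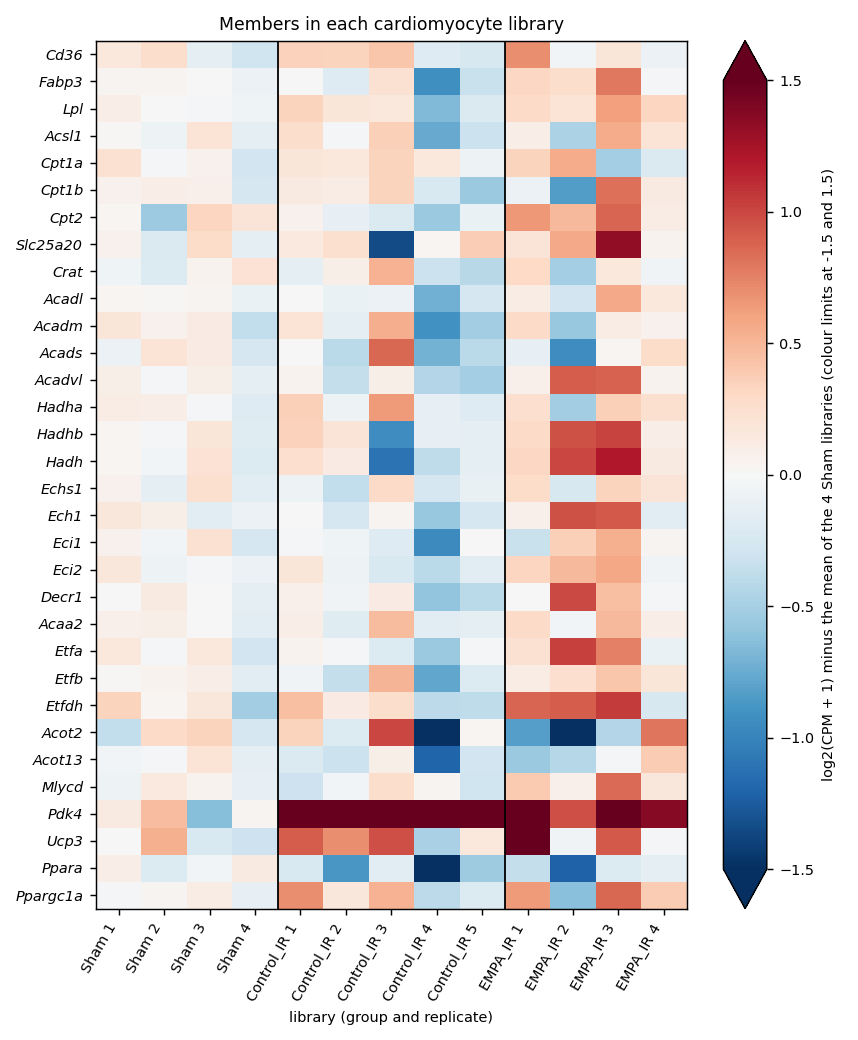
Each of the 32 genes in the 13 cardiomyocyte libraries, as log2(CPM + 1) minus the mean of the 4 Sham libraries, with colours capped at 1.5 on either side. Control_IR library 4 is below Sham in most genes, EMPA_IR library 3 is above in most, and EMPA_IR library 2 shows both signs side by side.

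Hadh, the 3-hydroxyacyl-CoA dehydrogenase for medium and short chains, had 148, 141, 169 and 125 CPM in Sham, 173, 158, 66.7, 111 and 131 in Control_IR and 179, 291, 333 and 159 in EMPA_IR (log2 fold change 0.91 ± 0.26 (SE), 95% CI 0.38 to 1.44, FDR: 0.0592). Acadvl, the very long-chain dehydrogenase, had 224, 207, 224 and 191 CPM in Sham, 219, 165, 224, 156 and 148 in Control_IR and 223, 397, 389.9 and 219 in EMPA_IR (log2 fold change 0.75 ± 0.21 (SE), 95% CI 0.31 to 1.20, FDR: 0.0593). EMPA_IR libraries 2 and 3 held the highest values for both, and the other EMPA_IR libraries fell in or near the Control_IR range. Cpt2, the carnitine palmitoyltransferase of the inner membrane, had 30.1, 19.9, 37.3 and 33.8 CPM in Sham, 31, 27.1, 25.3, 19.7 and 27.4 in Control_IR and 46.8, 41.7, 54.9 and 32 in EMPA_IR (log2 fold change 0.75 ± 0.22 (SE), 95% CI 0.30 to 1.20, FDR: 0.0609). It was the 1 member of 32 whose EMPA_IR and Control_IR libraries did not overlap, where 5.97% of all genes did not.

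Ech1, a dienoyl-CoA isomerase, had 377, 355, 298 and 313 CPM in Sham, 336, 281, 344, 226 and 281 in Control_IR and 353, 649, 633 and 300.5 in EMPA_IR (log2 fold change 0.72 ± 0.23 (SE), 95% CI 0.25 to 1.19, FDR: 0.0771). Etfa, the alpha subunit of electron-transfer flavoprotein, had 82.8, 72.3, 82.8 and 60.3 CPM in Sham, 76.8, 72.8, 64, 49.997 and 72.3 in Control_IR and 86.5, 151, 125 and 69 in EMPA_IR (log2 fold change 0.68 ± 0.22 (SE), 95% CI 0.23 to 1.13, FDR: 0.0778). Hadhb, the beta subunit of the trifunctional protein, had 159, 152, 176 and 138 CPM in Sham, 198, 178, 81.5, 143 and 142 in Control_IR and 190.5, 304, 315 and 166 in EMPA_IR (log2 fold change 0.71 ± 0.24 (SE), 95% CI 0.21 to 1.21, FDR: 0.0890). The same 2 libraries were again the highest for all 3 genes.

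The calls at FDR below 0.1 depended on single libraries of both groups. Without EMPA_IR libraries 2 and 3, 0 of 32 genes were called at FDR below 0.1, although 31 of 32 estimates were higher, with a median log2 fold change of 0.28. In that fit the log2 fold change was 0.18 for Ech1, 0.30 for Acadvl and 0.60 for Cpt2. The count at FDR below 0.1 was also 0 without Control_IR library 4, Control_IR library 5 or EMPA_IR library 3 and 1 without Control_IR library 2 or EMPA_IR library 2. It was 3 without Sham library 2 or Sham library 3, and 12 without EMPA_IR library 4, where 9 genes passed FDR 0.05 as well. Without EMPA_IR library 1 the count at FDR 0.05 was 2. The share of all genes called in these fits is not given here, so the shifts cannot be assigned to the 32 genes. EMPA_IR libraries 1, 2 and 3 were on other sample-sheet lists than the Sham and Control_IR libraries and EMPA_IR library 4. With a term for the list, the EMPA_IR estimates rested on EMPA_IR library 4 alone. Their log2 fold changes were then 0.03 for Ech1 and 0.04 for Etfa. That term therefore cannot tell the list and the treatment apart. What the lists stand for is not given in the sources used here. The paper states that the libraries of all samples were prepared and sequenced together.

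Hadha and Hadhb encode the 2 subunits of a single enzyme complex from neighbouring genes. Hadha had 679, 675, 619 and 551 CPM in Sham, 807, 597, 981, 579 and 551 in Control_IR and 752, 438, 805 and 745 in EMPA_IR. It was not called (log2 -0.04, FDR: 0.935), and EMPA_IR library 2 was far below the other 3 libraries of its group. The Hadha to Hadhb ratio was 3.35 to 4.47 in 10 of 13 cardiomyocyte libraries, but 12.0 in Control_IR library 3, 1.44 in EMPA_IR library 2 and 2.56 in EMPA_IR library 3. In EC libraries it was 2.55 to 4.18 and in fibroblast libraries 2.14 to 6.54. The median correlation of EMPA_IR library 2 with the other libraries of its group over all genes tested was 0.841, the lowest of the 13 cardiomyocyte libraries, with the others at 0.899 to 0.968.

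Single libraries were set against the 4 Sham libraries. EMPA_IR libraries 1 to 4 had 21, 16, 24 and 13 of the 32 genes above the Sham range and 4, 12, 2 and 0 below it. Control_IR libraries 1 to 5 had 14, 7, 18, 1 and 2 above and 3, 10, 4, 22 and 17 below. Between 20.4% and 37.1% of all genes lay above the Sham range in a library and 21.98% to 41.1% below it. Control_IR library 4 had the lowest summed cardiomyocyte markers of the 13 (69394 CPM) and EMPA_IR library 2 the next (76611). Summed fibroblast markers were 440 to 2664 CPM in EMPA_IR and 1930.3 to 5544 in Control_IR cardiomyocyte libraries, with 9 of 10 markers lower on average. Endothelial markers, at 733 to 1473 and 1172 to 2174 CPM, were lower in 10 of 11, and mural markers, at 813 to 1465 and 964 to 1379 CPM, in 8 of 10. Leukocyte markers, at 66.8 to 442 and 67.2 to 256 CPM, were lower in 7 of 11 and higher in 3. EMPA_IR library 2 held the highest leukocyte sum of the 13 (442 CPM) and the highest mitochondrially encoded share (66.01%). None of these markers was at 0 in the population, and their part in the EMPA_IR difference was not tested.

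**Figure D3:**
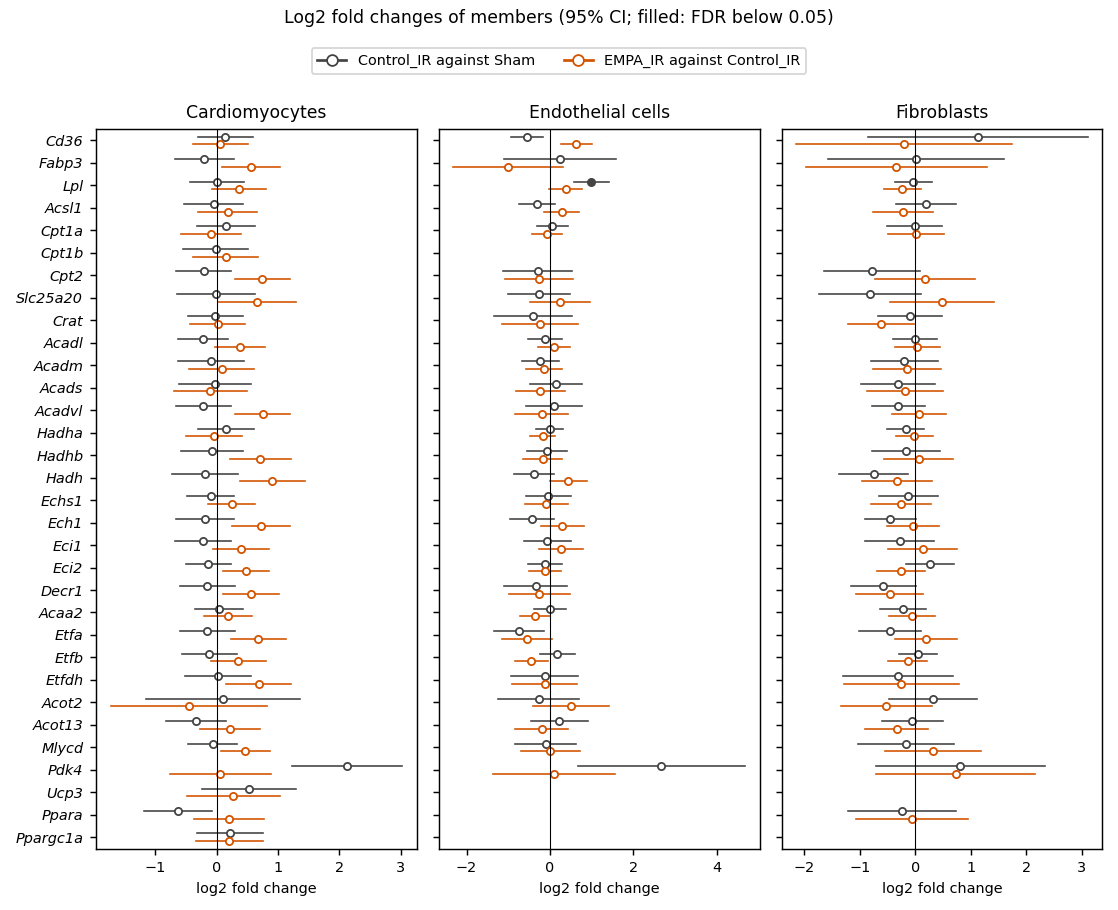
Log2 fold change with 95% CI of each tested gene in cardiomyocytes (32), ECs (28) and fibroblasts (29), for Control_IR against Sham and EMPA_IR against Control_IR, filled where FDR is below 0.05. Lpl in ECs after AMI is the only filled point, Pdk4 in cardiomyocytes lies far to the right without a call, and cardiomyocyte estimates under EMPA_IR lean to the right.

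In ECs 2 genes of the pathway passed a test between conditions, Lpl, which was higher after AMI, and Etfa, which was lower in EMPA_IR than in Sham. AMI gave 1 call of the 28 genes tested, Lpl, higher, where 6.56% of all 10438 genes were called. Cpt1b, Ucp3, Ppara and Ppargc1a did not pass the filter on low counts. The median log2 fold change of the 28 was -0.11 beside -0.02 over all genes. Lpl, Cd36 and Etfa (3 of 28) did not overlap between Control_IR and Sham, where 11.3% of all genes did not.

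Lpl, the lipase that acts on the luminal face of the capillary, had 588, 971, 931 and 669.8 CPM in Sham, 1273, 1646, 1364 and 2019 in Control_IR and 2619, 1694, 1587, 2466 and 1860.0 in EMPA_IR ECs. All Control_IR and all EMPA_IR libraries were above all Sham libraries. It was higher after AMI (log2 fold change 0.995 ± 0.20 (SE), 95% CI 0.58 to 1.41, FDR: 0.00413), and EMPA_IR libraries were not separated from Control_IR by the test (log2 0.38, FDR: 0.431). Against Sham the EMPA_IR libraries were higher (log2 fold change 1.37 ± 0.19 (SE), 95% CI 0.97 to 1.77, FDR: 0.000179), a call that held in all 25 alternatives. The AMI call held in 23 of 25, and the count of calls was 2 without Sham library 1 or EMPA_IR library 1. With sample-sheet lists as a term the log2 fold change was 0.91 (FDR: 0.0672), and with a term for fibroblast markers, which were higher in every Control_IR library than in any Sham library, it was 1.10 (FDR: 0.351). Because these markers follow the Control_IR group, that term cannot separate fibroblast RNA from AMI. The part of fibroblast RNA in the Lpl difference was not tested beyond that term.

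Cd36, the fatty acid translocase, had 1883, 1993, 2040.0 and 1694 CPM in Sham, 1088, 1548, 1464 and 1124 in Control_IR and 2998, 1578, 2202, 1653 and 1721 in EMPA_IR. Every Control_IR library was below every Sham library and below every EMPA_IR library, and Sham and EMPA_IR overlapped. Between EMPA_IR and Control_IR it was the 1 gene of 28 without overlap, where 4.21% of all genes had none. Neither difference was called (log2 fold change -0.54 ± 0.19 (SE), 95% CI -0.93 to -0.16, FDR: 0.0874 for AMI and log2 fold change 0.64 ± 0.18 (SE), 95% CI 0.27 to 1.01, FDR: 0.0608 for EMPA_IR against Control_IR). The AMI difference passed in 2 of 25 alternatives, at an FDR of 0.0302 with no filter on low counts and 0.0464 without EMPA_IR library 1. The EMPA_IR difference passed in 4 of 25, at 0.00729 with no filter, 0.0418 without Control_IR library 2, 0.0251 without EMPA_IR library 2 and 0.0363 by DESeq2. Fibroblast markers were higher in every Control_IR library than in any Sham or EMPA_IR library. A term for them therefore cannot be told apart from the Control_IR group. With that term the Cd36 estimates were -0.13 and 0.17. Endothelial markers moved alongside, 10 of 11 lower on average in Control_IR than in Sham and 10 of 11 higher in EMPA_IR than in Control_IR, with summed levels of 11617 to 12474 CPM in Sham, 6402 to 8752 in Control_IR and 8172 to 11269 in EMPA_IR. Leukocyte markers were higher on average in Control_IR than in Sham in 11 of 11 and lower in EMPA_IR than in Control_IR in 11 of 11, with sums of 9.40 to 41.04 CPM in Sham, 38.6 to 763 in Control_IR and 17.1 to 150.2 in EMPA_IR. Cardiomyocyte markers were lower in EMPA_IR than in Control_IR in 12 of 12 (378 to 902 against 523 to 1780 CPM). The part of RNA from these other cells in the EC differences was not tested beyond the terms given.

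EMPA_IR against Control_IR ECs gave 0 calls of 28 by edgeR, where 2.63% of all genes were called, with 2 at an unadjusted p under 0.05 (Cd36 and Etfb) and 1 call by DESeq2, which called 3.29% of all genes. Against Sham, EMPA_IR gave 2 calls of 28, where 2.71% of all genes were called. They were Lpl and Etfa, which were also the 2 of 28 tested genes without overlap, where 6.56% of all genes had none. Etfa had 20.6, 20.4, 26.3 and 28.5 CPM in Sham, 15, 19.3, 11.4 and 11.2 in Control_IR and 9.15, 8.11, 12.4, 11.7 and 7.18 in EMPA_IR. EMPA_IR libraries were the lowest as a group, Control_IR lay between and the fall from Sham passed the test for EMPA_IR (log2 fold change -1.29 ± 0.28 (SE), 95% CI -1.88 to -0.71, FDR: 0.0108) but not for Control_IR (log2 -0.74, FDR: 0.145). The EMPA_IR call held in all 25 alternatives, with an FDR of up to 0.04996. Summed cardiomyocyte markers were 378 to 902 CPM in EMPA_IR and 548 to 2174 in Sham ECs, with 11 of 12 markers lower on average and none at 0, and the call held with a term for these markers (log2 -1.39, FDR: 0.0274).

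**Figure D4:**
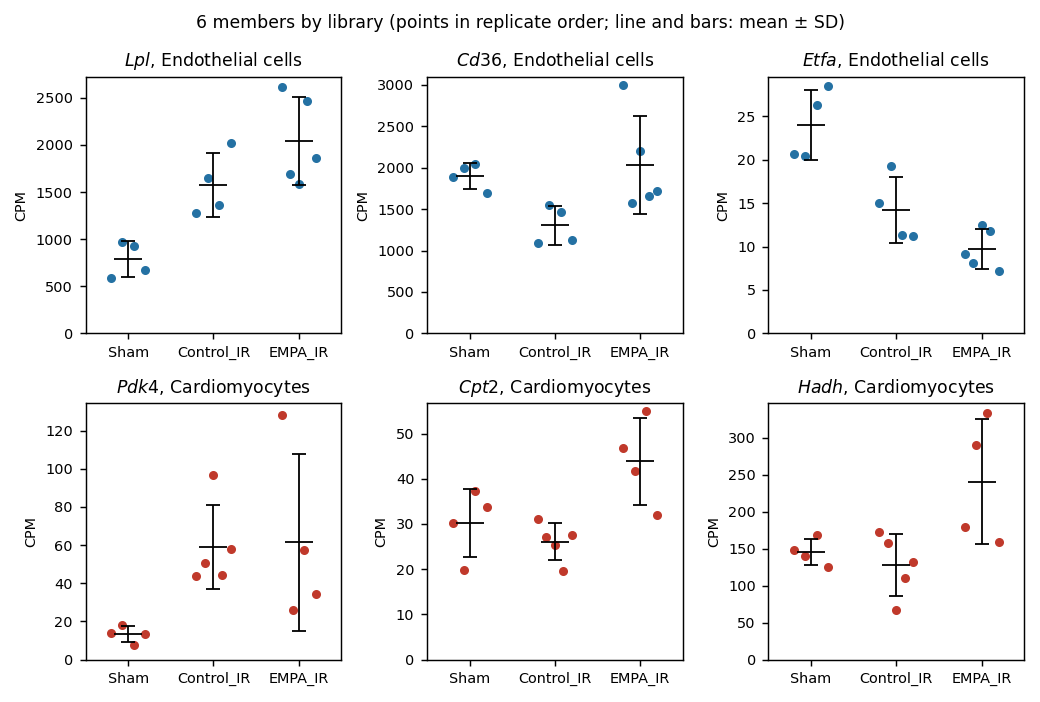
CPM of Lpl, Cd36 and Etfa in EC libraries and of Pdk4, Cpt2 and Hadh in cardiomyocyte libraries, 1 point per library, with the mean and SD of each group. Lpl rises from Sham, Cd36 is lowest in Control_IR, Etfa is lowest in EMPA_IR, and EMPA_IR Hadh divides into 2 high and 2 low libraries.

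The other uptake, activation and shuttle genes of ECs overlapped between groups. Fabp3 had 24.8, 7.13, 66.7 and 20.8 CPM in Sham, 21.3, 19.3, 54.8 and 47.9 in Control_IR and 10.8, 14.6, 7.92, 25.3 and 30.5 in EMPA_IR. Acsl1 had 42.5, 39.5, 59.9 and 38.2 CPM in Sham, 35.4, 44.9, 32.1 and 32.4 in Control_IR and 51.7, 35.7, 51.5, 40.8 and 41.3 in EMPA_IR. Cpt1a had 92, 60.4, 78.4 and 68.7 CPM in Sham, 84.4, 90.5, 74.9 and 61 in Control_IR and 84, 82.2, 71.8, 69.2 and 63.4 in EMPA_IR. Fabp3 varied several-fold within each group, in contrast to Cpt1a. Slc25a20 had 14.2, 18.1, 24.8 and 13.2 CPM in Sham, 8.62, 17.5, 22.1 and 11.2 in Control_IR and 30.7, 16.2, 13.6, 10.5 and 15.6 in EMPA_IR. Cpt1b had 4.13, 5.70, 2.92 and 0 CPM in Sham, 4.99, 0, 6.02 and 0 in Control_IR and 0, 2.16, 2.26, 0 and 9.58 in EMPA_IR, which is at the level of a few counts.

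The 9 beta-oxidation genes of ECs had AMI estimates of -0.38 to 0.15 and EMPA_IR against Control_IR estimates of -0.36 to 0.44, with 0 calls in both. Acadm had 75.5, 67, 61.3 and 54.8 CPM in Sham, 53.1, 52.5, 46.8 and 67.2 in Control_IR and 52.8, 73, 43.5, 33.4 and 45.5 in EMPA_IR. Acadl had 76.7, 57.5, 103 and 91.6 CPM in Sham, 59.9, 85.8, 80.2 and 78.4 in Control_IR and 64.6, 91.9, 95, 83.4 and 73.6 in EMPA_IR. Hadha had 126, 113, 146 and 143 CPM in Sham, 139.7, 129, 108 and 147 in Control_IR and 99.6, 125, 120.4, 114 and 119.7 in EMPA_IR. None of these passed the test, and their values overlapped in all pairs of groups. Etfb had 92, 63.7, 71.5 and 72.9 CPM in Sham, 78.9, 60.1, 74.9 and 126 in Control_IR and 66.2, 59.5, 52.6, 69.8 and 63.4 in EMPA_IR, with Control_IR library 4 the highest. Acot2 had 8.85, 5.23, 5.35 and 9.72 CPM in Sham, 9.07, 2.33, 4.01 and 8.09 in Control_IR and 12.9, 5.41, 8.48, 6.80 and 8.98 in EMPA_IR.

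Among the regulators, Pdk4 in ECs had 2.36, 0, 0 and 0.694 CPM in Sham, 1.36, 9.92, 5.35 and 3.11 in Control_IR and 6.46, 9.73, 1.70, 7.41 and 0.598 in EMPA_IR. These are few counts, with 0 in Sham libraries 2 and 3, and the increase did not pass the test (log2 2.67, FDR: 0.110 for AMI and log2 2.77, FDR: 0.131 for EMPA_IR against Sham). Ppara had 1.77, 2.38, 2.92 and 0.694 CPM in Sham, 1.36, 2.92, 0.668 and 4.98 in Control_IR and 1.61, 2.16, 2.83, 1.24 and 1.20 in EMPA_IR. Ppargc1a had 2.36, 3.33, 3.41 and 2.78 CPM in Sham, 3.17, 8.17, 0 and 3.11 in Control_IR and 2.69, 1.62, 0.565, 1.24 and 1.20 in EMPA_IR. Ucp3 had 1.18, 0, 0 and 0.694 CPM in Sham, 0, 0, 0.668 and 0.623 in Control_IR and 0.538, 0, 0, 0 and 0 in EMPA_IR, and at this depth a difference in these genes was not detectable.

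Fibroblasts showed lower estimates for most of the pathway after AMI, none of which passed the test. Control_IR against Sham gave 0 calls of the 29 genes tested by edgeR, where 4.16% of all 10691 genes were called, with 1 at an unadjusted p under 0.05 (Hadh) and 0 calls by DESeq2, which called 7.23% of all genes. Of the 29, 22 estimates were lower, with a median of -0.17 beside -0.03 over all genes. EMPA_IR against Control_IR gave 0 calls of 29 and 0% of all genes, with 1 member at an unadjusted p under 0.05 (Crat) and 0 calls by DESeq2 among the 29 or over all genes. EMPA_IR against Sham gave 2 calls, both lower, where 5.11% of all genes were called, and 24 of 29 estimates were lower with a median of -0.27.

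Hadh in fibroblasts had 31.2, 51, 44.2 and 71.4 CPM in Sham, 26.8, 24, 26.6 and 39.9 in Control_IR and 23.9, 13.7, 20.6 and 35 in EMPA_IR (log2 fold change -1.08 ± 0.30 (SE), 95% CI -1.71 to -0.45, FDR: 0.0451 for EMPA_IR against Sham). Decr1, the dienoyl-CoA reductase of unsaturated fatty acids, had 25.5, 35.6, 35.6 and 44.7 CPM in Sham, 23.8, 26.7, 20.3 and 23.9 in Control_IR and 27.5, 14.2, 17.4 and 9.73 in EMPA_IR (log2 fold change -1.04 ± 0.29 (SE), 95% CI -1.64 to -0.44, FDR: 0.0446). For Hadh only EMPA_IR library 4 reached the Sham range, and for Decr1 only EMPA_IR library 1 did. The calls held in 10 of 23 alternatives for Hadh and 12 of 23 for Decr1. Leaving out Sham library 2, 3 or 4, Control_IR library 1, 2 or 3, or EMPA_IR library 2 or 3 ended both calls (FDR: 0.0601 to 0.152 over these fits). Leaving out EMPA_IR library 1 ended that of Hadh (0.0806), and leaving out EMPA_IR library 4 that of Decr1 (0.114). Summed cardiomyocyte markers were 183 to 958 CPM in EMPA_IR and 219 to 1283 in Sham fibroblasts, with 10 of 12 markers lower on average and none at 0. With a term for these markers the log2 fold change was -1.13 for Hadh (FDR: 0.0575) and -1.02 for Decr1 (FDR: 0.0615), close to the values without it. Fibroblast markers were lower on average in EMPA_IR than in Sham in 10 of 10 (17860 to 25018 against 23147 to 30820 CPM), leukocyte markers lower in 9 of 11 (18.4 to 38.6 against 10.4 to 687) and endothelial markers higher in 8 of 11 (206 to 889.7 against 185 to 772). Their part in these calls was not tested.

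Lpl was abundant in fibroblasts, with 1429, 1437, 1239 and 1798 CPM in Sham, 1496, 1433, 1417 and 1421 in Control_IR and 1343, 1008, 1254 and 1294 in EMPA_IR. Its AMI difference was near 0 (log2 -0.03, FDR: 0.932). It was the 1 of 29 tested genes whose EMPA_IR and Control_IR libraries did not overlap, where 1.78% of all genes did not, and that difference did not pass the test (log2 -0.24, FDR: 1). Cd36 had 85.6, 36.5, 13.4 and 3.42 CPM in Sham, 83.9, 93.1, 97.4 and 29.2 in Control_IR and 23.4, 113, 111 and 17 in EMPA_IR, and summed endothelial markers in the fibroblast libraries ran from 185 to 889.7 CPM, with 9 of the 11 markers higher on average in Control_IR than in Sham. The part of endothelial RNA in these Cd36 values was not tested. Fabp3 had 9.01, 31.7, 30.4 and 5.12 CPM in Sham, 10.7, 18, 18.9 and 28.4 in Control_IR and 17.6, 6.84, 34.3 and 1.46 in EMPA_IR. Acsl1 had 13.5, 15.8, 16.5 and 16.1 CPM in Sham, 16.9, 13.9, 21.8 and 18.1 in Control_IR and 13.5, 18.4, 17.4 and 11.2 in EMPA_IR, a narrow range beside that of Fabp3.

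Cpt1a in fibroblasts had 85.2, 48.4, 77.6 and 88.5 CPM in Sham, 93.5, 83, 62 and 58.4 in Control_IR and 98.6, 78.9, 69.6 and 52.5 in EMPA_IR. Slc25a20, the translocase, had 8.26, 18.5, 10.4 and 16.4 CPM in Sham, 6.90, 6.38, 4.84 and 11.9 in Control_IR and 18.7, 3.68, 10.5 and 9.24 in EMPA_IR. Cpt1b had 0, 0.88, 2.17 and 0 CPM in Sham, 3.45, 4.13, 2.42 and 4.94 in Control_IR and 0, 0, 4.74 and 0 in EMPA_IR, at 0 in 5 of 12 libraries. The liver form of the transferase was thus present in every fibroblast library, and the muscle form was at the level of a few counts. Acadm had 72.1, 22.9, 50.7 and 44.4 CPM in Sham, 41.8, 39.8, 49.9 and 34.2 in Control_IR and 36.8, 36.8, 50.1 and 25.3 in EMPA_IR. Acadl had 64.2, 65.1, 57.2 and 84 CPM in Sham, 54.8, 63.1, 74.1 and 79 in Control_IR and 69.5, 55.3, 83.3 and 69.5 in EMPA_IR. All 9 beta-oxidation estimates were below 0 after AMI (-0.75 to -0.0001), with 0 calls, and the values of Acadm and Acadl overlapped between all groups. Hadha had 162, 127, 154 and 119.9 CPM in Sham, 129.6, 125, 130.3 and 115 in Control_IR and 119, 134, 131 and 107 in EMPA_IR. Etfb had 76.6, 94.6, 107 and 79.9 CPM in Sham, 96.2, 94.6, 96.9 and 81.5 in Control_IR and 79.9, 88.9, 92.2 and 73.9 in EMPA_IR. Acot2 had 10.1, 7.92, 12.1 and 13 CPM in Sham, 15.3, 13.1, 14 and 11.5 in Control_IR and 11.9, 9.47, 13.7 and 2.43 in EMPA_IR, with its lowest value in EMPA_IR library 4.

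Pdk4 in fibroblasts had 5.63, 2.20, 0.867 and 0 CPM in Sham, 2.30, 4.13, 6.30 and 2.88 in Control_IR and 4.15, 9.47, 6.85 and 5.35 in EMPA_IR. The Sham values ran from 0 to the middle of the infarcted range, and the difference between EMPA_IR and Sham did not pass the test (log2 1.55, FDR: 0.228). Ppara had 9.38, 2.64, 6.07 and 5.81 CPM in Sham, 4.60, 6.38, 4.36 and 4.94 in Control_IR and 2.08, 4.21, 6.32 and 6.81 in EMPA_IR. Ppargc1a had 1.502, 1.32, 1.73 and 0.683 CPM in Sham, 3.45, 0.751, 3.88 and 2.06 in Control_IR and 3.11, 0.526, 4.22 and 2.92 in EMPA_IR. Ucp3 had 0, 0, 0.434 and 0 CPM in Sham, 0.767, 0.375, 0 and 0.823 in Control_IR and 0, 0, 0 and 0 in EMPA_IR. The last 3 were near the detection limit, and no order of the groups could be read from them.

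Whether populations responded differently was tested as the difference of their fold changes in the fit of all libraries. That fit treated libraries of the 3 populations as independent, although the populations were taken from the same hearts. The labels do not say which libraries share hearts, so this pairing was not modelled. The replicate block was set within each population and does not model it either. For AMI, fibroblasts against ECs, 1 of 32 genes was called, where 3.22% of all 12085 genes were. It was Lpl, whose change in fibroblasts was -1.04 ± 0.29 (SE) below that in ECs on the log2 scale (95% CI -1.63 to -0.44, FDR: 0.0378). Without fibroblast Sham library 1 the count was 2. Fibroblast markers were higher in every Control_IR EC library than in any Sham EC library, and their part in the Lpl difference was not tested. The call of Lpl held in 34 of 45 alternatives, with estimates of -1.16 to -0.89. It was lost without EC Sham library 1 (FDR: 0.103) or 4 (0.0966), EC Control_IR library 2 (0.0545) or 4 (0.117), fibroblast Sham library 2 (0.0526) or 4 (0.102), or any of the 4 fibroblast Control_IR libraries (0.0562, 0.0675, 0.0701 and 0.0569), and with the replicate number as a block (0.0799). For AMI, cardiomyocytes against ECs, edgeR called 0 of 32, where 1.51% of all genes were called. One gene, Lpl again, was at an unadjusted p under 0.05 (log2 -1.02, FDR: 0.0533), and DESeq2 called 1 of 32 and 2.25% of all genes. The count was also 1 without cardiomyocyte Control_IR library 1, cardiomyocyte EMPA_IR library 2, 3 or 4, EC Sham library 2 or EC Control_IR library 3.

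For EMPA_IR against Control_IR, cardiomyocytes against ECs, edgeR called 0 of 32 against 0.993% of all genes, with 7 at an unadjusted p under 0.05 and 1 call by DESeq2, which called 4.08% of all genes. The smallest FDR was that of Etfa (log2 1.19, FDR: 0.0603), whose estimate was above 0 in cardiomyocytes and below 0 in ECs. Leaving out cardiomyocyte EMPA_IR library 1 or 4 gave 1 call. For cardiomyocytes against fibroblasts edgeR called 0 of 32 against 0.00827% of all genes, with 5 at an unadjusted p under 0.05 and 0 calls by DESeq2, which called 1.83% of all genes. The smallest FDR there was that of Hadh (log2 1.19, FDR: 0.154), and 1 gene was called without cardiomyocyte EMPA_IR library 4. Neither count at an unadjusted p has a share of all genes beside it.

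A wider list of 88 genes of lipid transport, storage, peroxisomal and branched-chain oxidation and their regulators was examined beside the 32. In Sham hearts 80 were tested, of which 55 were higher and 9 lower in cardiomyocytes than in ECs, and 47 higher and 8 lower than in fibroblasts. Over all genes, 28.1% were higher and 24.8% lower than in ECs, and 24.5% higher and 22.7% lower than in fibroblasts. In cardiomyocytes, AMI gave 0 calls of 79 by edgeR, with 2 at an unadjusted p under 0.05. EMPA_IR against Control_IR gave 7 at FDR below 0.1, all higher, against 5.33% of all genes, and 0 at FDR below 0.05. The 18 at an unadjusted p under 0.05 have no share of all genes beside them. Fabp4 and Fabp5, the fatty acid binding proteins of capillary endothelium, were called in ECs. After AMI Fabp4 fell by 0.73 and Fabp5 by 0.80 on the log2 scale (FDR: 0.0213 and 0.00394), and Fabp4 was higher in EMPA_IR than in Control_IR (log2 0.81, FDR: 0.0148). Both moved in the direction of the Cd36 estimates and of the endothelial markers in the same libraries. The other genes of the list called after AMI in ECs rose, namely Acadsb (log2 0.89), Lpin2 (0.77) and Nrip1 (0.63), 5 of 68 in all, a share near the 6.56% of all genes called. In fibroblasts AMI gave 3 calls of 70, near the 4.16% of all genes, Nrip1 higher (log2 0.82, FDR: 0.0122) and Ppargc1b (log2 -1.39, FDR: 0.0305) and Mmut (log2 -1.10, FDR: 0.0386) lower.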

How the data were processed

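Counts were deposited by the authors in the form of expected counts per Ensembl gene, estimated by Salmon from 3′ RNA libraries trimmed with cutadapt 2.8 and assigned to GRCm39 with Ensembl release 106 (4.55% of values were not whole). They were rounded here, and 35407 of 35682 identifiers had a symbol. Each population was fitted by itself with edgeR 4.0.16 (R 4.3.3): filterByExpr with a minimum count of 10, TMM factors, robust quasi-likelihood F tests and Benjamini-Hochberg adjustment over all genes tested (9167 in cardiomyocytes, 10438 in ECs and 10691 in fibroblasts). A fit of 9 groups (12085 genes) gave the comparisons between populations. SE is the absolute log2 fold change divided by the square root of F. The scripts were tested on simulated counts. Fitted values from few counts depend on the prior count and are not bounds, and the precision of low levels is limited by counting error, 3 counts being 0.665 to 2.22 CPM in cardiomyocyte and EC libraries.

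The 32 genes, the wider list of 88 and the markers were chosen with earlier results of these data known. Values in every library are given for 16 genes listed for their step and for members called in a comparison. Wider-list genes called between conditions at FDR below 0.05 are named, at most 3 in each direction. The 4 called lower in EMPA_IR than in Sham fibroblasts are an exception and are not named. Alternatives were DESeq2 1.42.0, other scaling and filters, fits of 2 groups, a replicate block, terms for the sample-sheet list (runs of sheet numbers in the labels), the library number series and markers, and leaving out each library. The term for fibroblast markers and the fit without EMPA_IR libraries 2 and 3 were added after seeing the data. Within groups, each of 62 pairs of libraries differed by more than counting noise (4.33 to 70.8 times), so all were counted as separate. Within a population, each library is a separate pool of hearts in the study's methods. The 3 populations were taken from the same digested hearts, so libraries of different populations can share hearts. Not every pair of same-numbered libraries deviated together (median correlation 0.0143, 0.0414 and 0.0987 in cardiomyocytes, ECs and fibroblasts).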

Additional observations from a re-analysis of the deposited data

Results flagged for a closer look

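In 8 of 201 groups of 4 or 5 libraries examined over 23 genes, 1 library lay farther from the rest than Dixon's 95% limit, where chance gives about 1 in 20. In cardiomyocytes Acadl in Sham library 4 was 331 CPM (others 362 to 368), Cpt1b in Sham library 4 was 66.9 CPM (83.4 to 85.4), Hadha in EMPA_IR library 2 was 438 CPM (745 to 805) and Slc25a20 in Control_IR library 3 was 10.2 CPM (28.0 to 35.8). In fibroblasts Cd36 in Control_IR library 4 was 29.2 CPM (83.9 to 97.4), Etfb in Control_IR library 4 was 81.5 CPM (94.6 to 96.9), Hadhb in EMPA_IR library 2 was 20.5 CPM (38.9 to 42.3) and Cpt1b in EMPA_IR library 3 was 4.74 CPM (others 0). No EC group held such a library.

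The AMI difference of Lpl was -1.04 on the log2 scale between fibroblasts and ECs by the interaction test (edgeR, FDR: 0.0378). The part of fibroblast RNA in the Control_IR EC libraries was not tested.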

How the results depend on the processing

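Over 554 alternatives to the counts of called genes, 467 stayed within 1.5 times the count reported and 87 did not. Over 407 for named genes, 281 kept their direction and side of the threshold, 115 lost and 11 gained the call, and 0 reversed. Counts after single libraries are left out are given without the share of all genes called in those fits. In cardiomyocytes the AMI count (0) was 1 by DESeq2, in a fit of 2 groups, and with sample-sheet lists or library number series as a term, and 0 to 1 when single libraries were left out. The EMPA_IR against Control_IR count at FDR below 0.05 (0) was 5 by DESeq2, 1 with no filter and 1 with at least 10 counts in every library (0 to 9 when single libraries were left out). At FDR below 0.1 (6) it was 11 by DESeq2 and 0 in a fit of 2 groups and without EMPA_IR libraries 2 and 3 (0 to 12). EMPA_IR against Sham (1) was 0 with no filter, in a fit of 2 groups and without EMPA_IR libraries 2 and 3, and 2 with the series term (0 to 4). With the list term the EMPA_IR estimates of cardiomyocytes rest on library 4 alone, so no count is given for it. In ECs the AMI count (1) was 2 with no filter and 0 with the list term or fibroblast markers (1 to 2), and EMPA_IR against Control_IR (0) was 1 by DESeq2 and with no filter (0 to 1). In fibroblasts EMPA_IR against Sham (2) was 1 without robust estimation and with the series term and 0 in a fit of 2 groups and with cardiomyocyte markers (0 to 3). Between populations, the AMI difference of cardiomyocytes and ECs (0) was 1 by DESeq2 and without mitochondrially encoded genes (0 to 1), that of fibroblasts and ECs (1) was 0 to 2 when single libraries were left out, and the EMPA_IR difference of cardiomyocytes and ECs (0) was 1 by DESeq2 and with at least 10 counts in every library (0 to 1), and of cardiomyocytes and fibroblasts 0 to 1. In Sham hearts the counts were 21 to 30 of 32 against ECs (30 to 31 when single libraries were left out) and 21 to 32 against fibroblasts (31 to 32). Both counts of 21 came from testing only genes with at least 10 counts in every library, which leaves members such as Ucp3 untested. Calls between ECs and fibroblasts were 5 to 7 (6 to 8 when single libraries were left out).

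With the replicate number as a block, the count for EMPA_IR against Control_IR cardiomyocytes at FDR below 0.1 was 0 of 32, that for EMPA_IR against Sham cardiomyocytes was 0 and that for the AMI difference of fibroblasts and ECs was 0 (Lpl, FDR: 0.0799). It moved no other count. Labels give the same numbers in each group, but same-numbered libraries correlated by -0.113 to 0.482, and nothing in the labels ties them to a shared day or animal.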

Other observations

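Genes next to the pathway divided the populations further. In Sham libraries (fit of all libraries) Fabp4 had 550.3 CPM in cardiomyocytes, 3187 in ECs and 63.5 in fibroblasts. Gpihbp1, which holds lipoprotein lipase at the capillary wall, had 157, 444 and 13.1 CPM in the same order. Fabp5 had 141, 659 and 75.1. Pparg, a nuclear receptor of lipid storage, had 9.41, 21.5 and 0.658. These 4 genes were highest in ECs.

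Cardiomyocytes were highest for Pnpla2, the triglyceride lipase of lipid droplets, with 208, 66.8 and 18.8 CPM. Esrra had 27.4, 5.22 and 6.75, Slc27a1 had 17.8, 1.26 and 3.00, and Acot1 had 12.6, 0.841 and 4.84. Acsl4 (13.6, 19.9 and 26.8), Angptl4 (8.33, 9.47 and 14.7) and Plin2 (40.6, 25.9 and 32.4) lay closer together.

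In ECs 3 of 68 genes of the wider list were called between EMPA_IR and Control_IR, where 2.63% of all genes were, and 2 of them were lower in EMPA_IR, Hsd17b8 (log2 -0.86, FDR: 0.0242) and Nr1h3 (log2 -1.09, FDR: 0.0416). Against Sham 7 of 68 were called in EMPA_IR ECs, where 2.71% of all genes were, among them Lpin2 (0.96), Acadsb (0.91) and Nrip1 (0.68) higher, and Hsd17b8 (-0.98) and Mmut (-1.003) lower, as log2 fold changes. In EMPA_IR fibroblasts 6 of 70 were called against Sham, where 5.11% of all genes were. Of these, 2 were higher, Nrip1 (1.06) and Pnpla2 (1.02), and 4 were lower, which are not named here. Among the 70 estimates 48 were lower, with a median of -0.21 beside -0.03 over all genes.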
